A study of Homo sapiens with 12 samples.

Results

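HNRNPF, HNRNPH1, HNRNPH2, HNRNPH3, HNRNPK, HNRNPL, HNRNPLL, HNRNPM, HNRNPR and HNRNPU encode heterogeneous nuclear ribonucleoproteins (hnRNPs) of the F/H, K, L, M, R and U classes. They were chosen by gene symbol, and all 10 were found among 27745 genes of the count table and among 60675 genes of the RNA immunoprecipitation tables. The cells were MDA-MB231, an established breast cancer cell line. The hairpin groups carried a stably expressed lentiviral short hairpin RNA against TDP43 (sh_TDP43), one against SRSF3 (sh_SRSF3) or a control hairpin (sh_control), with 2 RNA-seq libraries each. A group with both hairpins is also named in the labels and was not analysed here. For RNA immunoprecipitation (RIP), cells overexpressed Flag-tagged TDP43 or Flag-tagged SRSF3. RNA held by a Flag antibody was sequenced beside input RNA of the same cells, with 1 RIP library and 1 input library for each protein. The labels name no second hairpin for either target and no RIP from cells without a Flag protein.

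The hnRNPs coat nascent transcripts in the nucleus and act on splice site choice, mRNA export and stability. The F/H proteins bind runs of guanines, HNRNPK binds cytosine-rich RNA, HNRNPL and its paralog HNRNPLL bind CA-rich RNA, and HNRNPM binds GU-rich RNA. HNRNPM is known in breast cancer cells for promoting the mesenchymal splice form of CD44. HNRNPR is a paralog of SYNCRIP, and HNRNPU, also called scaffold attachment factor A, binds both RNA and chromatin. TDP43, encoded by TARDBP, is itself an hnRNP-like protein that binds GU repeats, and SRSF3 is a small member of the SR family of splicing factors. Many genes for splicing proteins, SRSF3 and several hnRNP genes among them, are known to limit their own RNA through alternative exons that expose it to nonsense-mediated decay.

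The hairpin libraries held 34457445 to 38326930 counted reads. TARDBP was at 34.44 and 31.28 TMM-scaled counts per 1e6 reads (CPM) in sh_TDP43, against 168.1 and 124.5 CPM in sh_control, and SRSF3 was at 64.05 and 61.75 CPM in sh_SRSF3, against 458.7 and 403.6 CPM in sh_control, so each target was low where its label says. SRSF3 was also low in sh_TDP43, at 187.5 and 180.4 CPM. TARDBP was at 107.9 and 101.5 CPM in sh_SRSF3 and was called lower there (log2 change -0.48, edgeR adjusted p = 0.00326). Without control replicate 1 this TARDBP change was -0.25. Markers of MDA-MB231 such as VIM, at 1774 to 2398 CPM in the 6 libraries, were abundant, while PGR, a progesterone receptor gene absent from triple-negative cells, was at 0 CPM in 5 of them. Of 7 such markers, 0 rose and 5 fell in sh_TDP43 (median log2 change -0.38) and 2 rose and 4 fell in sh_SRSF3 (median -0.32). Over all genes tested, 20.7% rose and 24.1% fell in sh_TDP43, and 32.5% rose and 34.4% fell in sh_SRSF3. Of 6 genes expected to be absent or low in these cells, PGR among them, 4 passed the filter. Not all were near 0: GATA3 was at 9.283 to 12.01 CPM and EPCAM at 3.635 to 8.098 CPM over the 6 libraries. In each knockdown 1 of the 4, the epithelial cadherin gene CDH1, rose and 0 fell. CDH1 was at 2.415 and 2.808 CPM in sh_TDP43 and 15.05 and 15.71 CPM in sh_SRSF3, against 1.022 and 1.513 CPM in sh_control, while EPCAM, another epithelial gene, was not called in either. Their part in the results below was not tested. Whether libraries came from separate cultures is not stated in the labels, so the spread behind the p-values may be technical. In a bulk library, fewer cells with an RNA and less of it per cell cannot be told apart. The 2 control libraries differed more from each other than those of either knockdown did (chi-square per gene 12.972 in sh_TDP43 and 12.016 in sh_SRSF3, against 24.606 in sh_control), and 9 of the 10 hnRNP genes were higher in control replicate 1 than in control replicate 2.

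Promoters of HNRNPH2, HNRNPM and HNRNPLL are shown because of their log2 changes in sh_SRSF3, described below: HNRNPH2 and HNRNPM were the members higher there, and HNRNPLL had the largest fall. HNRNPH1, which had the largest fall in sh_TDP43, is not shown. Each sequence is the RefSeq window (GRCh38.p14) of 250 bases before to 50 bases after the gene start, read 5′ to 3′ on the gene's strand, at chrX:101407972-101408271 (+), chr19:8444725-8445024 (+) and chr2:38602879-38603178 (-). Capitals mark CACGTG, an E-box core that reads the same on both strands, and its letters were picked for display after the sequences and the changes had been seen.
HNRNPH2: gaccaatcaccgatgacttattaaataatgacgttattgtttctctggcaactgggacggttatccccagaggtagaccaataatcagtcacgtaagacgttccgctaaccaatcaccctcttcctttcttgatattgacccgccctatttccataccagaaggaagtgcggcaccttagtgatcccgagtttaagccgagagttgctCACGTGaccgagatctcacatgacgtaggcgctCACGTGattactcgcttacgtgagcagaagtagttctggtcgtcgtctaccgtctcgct
HNRNPM: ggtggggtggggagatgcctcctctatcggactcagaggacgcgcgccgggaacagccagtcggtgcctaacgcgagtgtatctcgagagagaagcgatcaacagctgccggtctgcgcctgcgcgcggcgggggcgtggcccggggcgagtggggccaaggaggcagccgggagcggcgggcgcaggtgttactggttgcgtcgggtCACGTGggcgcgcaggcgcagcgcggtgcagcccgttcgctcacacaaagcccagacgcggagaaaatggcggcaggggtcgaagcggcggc
HNRNPLL: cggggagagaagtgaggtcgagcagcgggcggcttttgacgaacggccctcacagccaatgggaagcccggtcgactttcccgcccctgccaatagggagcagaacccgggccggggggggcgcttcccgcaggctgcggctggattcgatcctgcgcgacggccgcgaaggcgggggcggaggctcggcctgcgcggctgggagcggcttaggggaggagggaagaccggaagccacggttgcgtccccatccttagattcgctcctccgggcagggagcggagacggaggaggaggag
The HNRNPH2 window held CACGTG at 2 places and the HNRNPM window at 1, and the HNRNPLL window had none. RefSeq windows were found for all 10 genes, 18 in all, and CACGTG was in at least 1 window of 3 genes. The other was HNRNPH3, whose RNA fell in sh_TDP43 and was not called in sh_SRSF3, while HNRNPM was not called in sh_TDP43. Of 35116 windows of 300 bases for all genes, 7.26% held CACGTG, a share per window and not per gene. The HNRNPH2 window had a GC content of 48.7%, against 70.7% in HNRNPM, 70.3% in HNRNPLL and a median of 58.7% over all windows. CCAAT, read on both strands, was found at 3 places in HNRNPH2, 2 in HNRNPLL and 0 in HNRNPM, and was in 34.6% of all windows. GGGCGG, the core of the GC box, was found on either strand at 1 place in HNRNPH2, 3 in HNRNPLL and 0 in HNRNPM, and 45% of all windows held it. None of these motifs contains another, and a match describes the letters alone.

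Per length of exons, the genes covered a wide range of levels. In sh_control, HNRNPK was highest at 158 ± 8.0 reads per kilobase per 1e6 reads (RPKM; SD, n = 2), followed by HNRNPF at 101 ± 7.9 RPKM, HNRNPM at 81.2 ± 17 RPKM, HNRNPH1 at 79.4 ± 7.7 RPKM and HNRNPU at 62.8 ± 7.7 RPKM (SD, n = 2 each). HNRNPL at 37.4 ± 6.3 RPKM, HNRNPH3 at 35.6 ± 3.3 RPKM, HNRNPH2 at 35.2 ± 0.54 RPKM and HNRNPR at 31.7 ± 3.1 RPKM lay close together, and HNRNPLL was lowest at 7.88 ± 0.51 RPKM (SD, n = 2 each). Library ranges of neighbours in this order overlapped for HNRNPM with HNRNPH1, HNRNPL with HNRNPH3 and HNRNPH3 with HNRNPH2, so those pairs did not differ beyond their spread. The other neighbours did not overlap.

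The order changed with the hairpin. In sh_TDP43 HNRNPK stayed at the top with 111 ± 4.9 RPKM, and HNRNPH2 followed HNRNPM at 55.2 ± 1.9 RPKM, where its range overlapped that of HNRNPH1, next in order at 51.8 ± 4.9 RPKM (SD, n = 2 each). In sh_SRSF3 HNRNPM was highest at 115 ± 1.4 RPKM, above HNRNPK at 79.5 ± 4.6 RPKM, with no overlap between them (SD, n = 2 each). HNRNPLL was lowest in each of the 3 groups. The CPM of the 10 genes summed to 3262 and 3023 in sh_TDP43 and to 3650 and 3428 in sh_SRSF3, against 4345 and 3741 in sh_control, so each knockdown library lay below both controls.

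**Figure D1:**
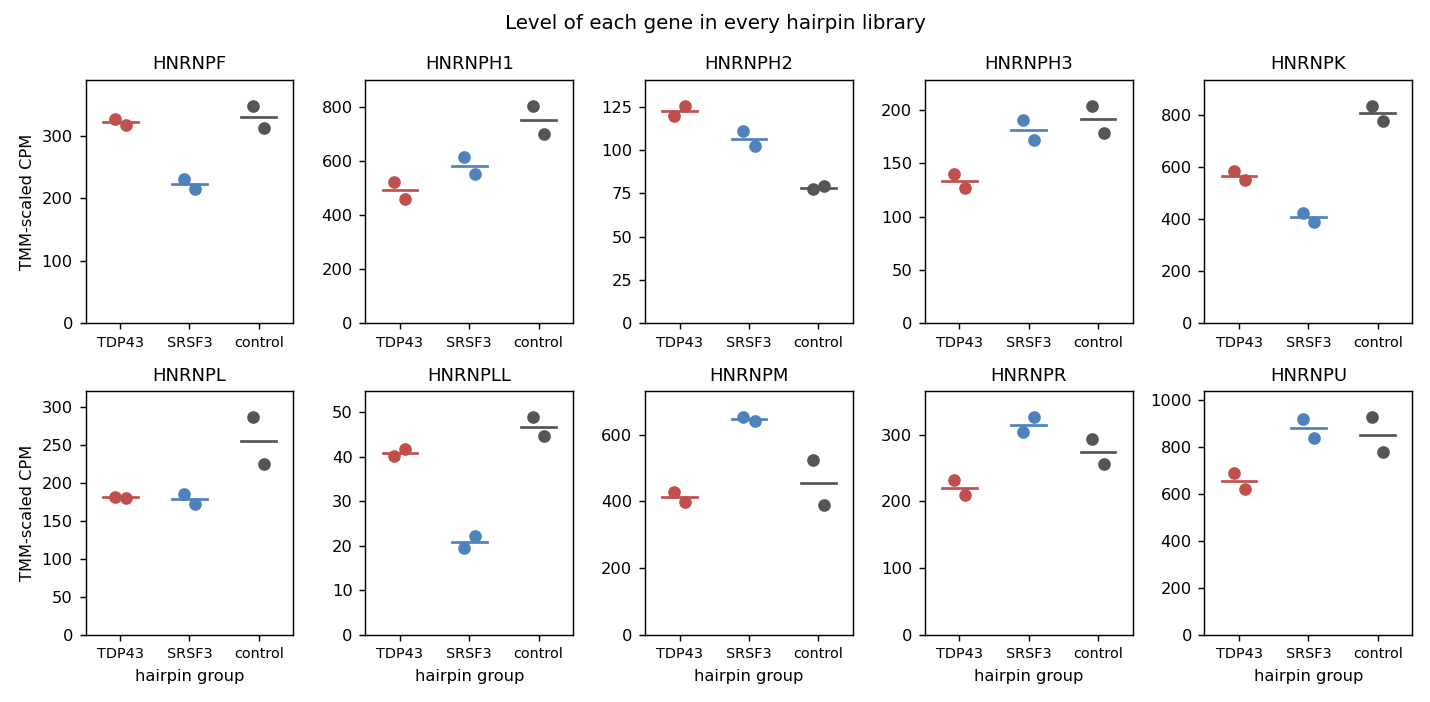
TMM-scaled CPM (vertical axes, each from 0) of each gene in sh_TDP43, sh_SRSF3 and sh_control. Points are single libraries, 2 a group, and lines are group means. HNRNPH2 was higher in both knockdowns than in sh_control, HNRNPK and HNRNPL were lower in both, and HNRNPM was highest in sh_SRSF3.

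Depletion of TDP43 was examined first, in sh_TDP43 against sh_control. HNRNPH1, HNRNPH3, HNRNPK, HNRNPL, HNRNPR and HNRNPU fell and HNRNPH2 rose, while HNRNPF, HNRNPLL and HNRNPM were not called. The 7 calls of 10 compare with 44.8% of all 15026 genes tested, of which 20.7% were called higher and 24.1% lower (edgeR quasi-likelihood test, Benjamini-Hochberg adjusted p under 0.05). The median log2 change of the 10 genes was -0.35, against -0.003 over all genes tested. All of them passed the filter on low counts. The CPM of 8 genes did not overlap between the groups, HNRNPF and HNRNPM being the exceptions, against 73.2% of all genes.

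Depletion of SRSF3 was examined in sh_SRSF3 against the same controls, where HNRNPF, HNRNPH1, HNRNPK, HNRNPL and HNRNPLL fell, HNRNPH2 and HNRNPM rose, and HNRNPH3, HNRNPR and HNRNPU were not called. Here 7 calls of 10 compare with 66.9% of all genes, of which 32.5% were higher and 34.4% lower, so the share called is near the background. The median log2 change was -0.22, against -0.03 over all genes tested. The CPM of 8 genes did not overlap between the groups, HNRNPH3 and HNRNPU being the exceptions, against 83.2% of all genes. Both comparisons use the same control libraries.

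**Figure D2:**
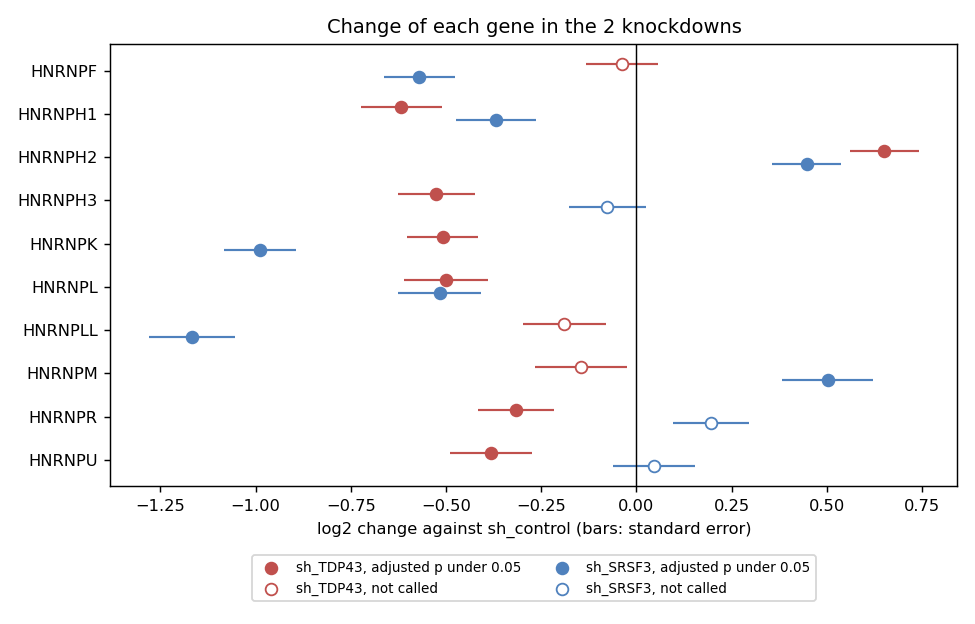
Log2 change against sh_control (horizontal axis) of each gene in sh_TDP43 (upper point of each pair) and sh_SRSF3 (lower point). Bars are standard errors of the edgeR fit, and open points were not called. HNRNPH2 was higher in both, and the points for HNRNPF, HNRNPLL and HNRNPM lie farther from 0 in sh_SRSF3.

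Among the F/H genes, HNRNPH2 and HNRNPH1 moved in opposite directions in both knockdowns. HNRNPH2 (GRCh37 chromosome X, 100663283 to 100669121), which encodes a close paralog of HNRNPH1, was at 119.8 and 125.6 CPM in sh_TDP43 and 111.1 and 102.1 CPM in sh_SRSF3, against 77.29 and 79.01 CPM in sh_control. Neither knockdown overlapped the controls. Its log2 change was 0.65 in sh_TDP43 (SE 0.09, edgeR adjusted p = 5.89e-05) and 0.45 in sh_SRSF3 (SE 0.09, adjusted p = 0.000578), where upper-quartile scaling gave 0.29 (adjusted p = 0.0112). RPL36A-HNRNPH2, a readthrough gene that shares 362 of its exonic bases, had 0 counted reads in each library. Reads on exons shared between genes may go uncounted, so this does not show that the readthrough RNA was absent. HNRNPH2 was the single member higher in sh_TDP43, with 84.4% of all genes below it there.

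HNRNPH1 (GRCh37 chromosome 5, 179041179 to 179061785), the more abundant H gene in sh_control, was at 523.6 and 458.4 CPM in sh_TDP43 and 614.5 and 552.1 CPM in sh_SRSF3, against 804.5 and 701.7 CPM in sh_control. Both knockdowns lay below the controls without overlap. It fell by 0.62 (log2) in sh_TDP43 (SE 0.11, edgeR adjusted p = 0.000343), the largest fall of the 10 genes there, and its log2 change in sh_SRSF3 was -0.37 (SE 0.11, adjusted p = 0.00705). The sh_SRSF3 call ended without sh_SRSF3 replicate 2 (adjusted p = 0.0839) or without control replicate 1 (adjusted p = 0.0501).

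HNRNPH2 made up 18.6% and 21.5% of the HNRNPH1 and HNRNPH2 CPM together in sh_TDP43 and 15.3% and 15.6% in sh_SRSF3, against 8.77% and 10.1% in sh_control. The summed CPM of both genes was 643 and 584 in sh_TDP43 and 726 and 654 in sh_SRSF3, against 882 and 781 in sh_control, so the sum was lower in every knockdown library. These shares are of reads, not per length. Reads that match more than 1 F/H paralog cannot be assigned to one of them, and how many there were was not measured.

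HNRNPH3 (GRCh37 chromosome 10, 70090931 to 70102948), which encodes a shorter F/H protein, was at 139.7 and 126.4 CPM in sh_TDP43 and 191 and 172.2 CPM in sh_SRSF3, against 204 and 178.8 CPM in sh_control. The sh_TDP43 libraries lay below the controls, while the sh_SRSF3 libraries overlapped them. It fell by 0.52 (log2) in sh_TDP43 (SE 0.10, edgeR adjusted p = 0.000834), and its log2 difference in sh_SRSF3 was -0.08 (SE 0.10, adjusted p = 0.522). RUFY2, on the other strand, shares 115 of its exonic bases and also fell in sh_TDP43, with a log2 change of -0.61 (adjusted p = 0.000507).

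HNRNPF (GRCh37 chromosome 10, 43881065 to 43904614), which encodes another protein that binds guanine runs, was at 325.7 and 316.2 CPM in sh_TDP43 and 230.1 and 213.8 CPM in sh_SRSF3, against 347.6 and 311.3 CPM in sh_control. Its sh_SRSF3 libraries stood below the other 4, and its sh_TDP43 libraries lay within the control range. It fell by 0.57 (log2) in sh_SRSF3 (SE 0.09, edgeR adjusted p = 1e-04), and its log2 difference in sh_TDP43 was -0.04 (SE 0.09, adjusted p = 0.772).

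HNRNPK and HNRNPLL had the largest falls in sh_SRSF3. HNRNPK (GRCh37 chromosome 9, 86582998 to 86595531), which encodes a KH-domain protein of transcription, splicing and translation, was at 584.6 and 549 CPM in sh_TDP43 and 423.5 and 389.9 CPM in sh_SRSF3, against 835.8 and 777.9 CPM in sh_control. The 3 groups did not overlap, with sh_SRSF3 lowest. It fell by 0.51 (log2) in sh_TDP43 (SE 0.09, edgeR adjusted p = 0.000587), and its log2 change in sh_SRSF3 was -0.99 (SE 0.10, adjusted p = 5.47e-07).

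HNRNPLL (GRCh37 chromosome 2, 38789120 to 38830728), known in T cells for switching the splicing of the CD45 RNA, was at 40.11 and 41.69 CPM in sh_TDP43 and 19.41 and 22.13 CPM in sh_SRSF3, against 48.78 and 44.54 CPM in sh_control. The sh_SRSF3 libraries were far below the rest, and the sh_TDP43 libraries just below the controls. It fell by 1.17 (log2) in sh_SRSF3 (SE 0.11, edgeR adjusted p = 5.93e-07), and its log2 difference in sh_TDP43 was -0.19 (SE 0.11, adjusted p = 0.176).

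HNRNPL (GRCh37 chromosome 19, 39327028 to 39342987), the more abundant paralog, was at 181.6 and 179.7 CPM in sh_TDP43 and 185.2 and 171.7 CPM in sh_SRSF3, against 285.7 and 225 CPM in sh_control. The knockdowns overlapped each other and lay below both controls, which were far apart. AC104534.3, on the same strand, shares 561 exonic bases with HNRNPL and had 0 counted reads in each library. Reads on the shared bases may go uncounted, and the effect on the HNRNPL level was not measured. HNRNPL fell by 0.50 (log2) in sh_TDP43 (SE 0.11, edgeR adjusted p = 0.0022), and its log2 change in sh_SRSF3 was -0.52 (SE 0.11, adjusted p = 0.000859). Without control replicate 1 the changes were -0.32 (adjusted p = 0.0207) in sh_TDP43 and -0.34 (adjusted p = 0.00963) in sh_SRSF3, and without control replicate 2 they were -0.67 and -0.68.

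HNRNPM, HNRNPR and HNRNPU were higher in sh_SRSF3 than in sh_TDP43. HNRNPM (GRCh37 chromosome 19, 8509651 to 8553998) was at 428.3 and 396.5 CPM in sh_TDP43 and 651.3 and 640 CPM in sh_SRSF3, against 522.3 and 389.8 CPM in sh_control. Its control libraries were far apart and enclosed both sh_TDP43 libraries, while both sh_SRSF3 libraries lay above them. It rose by 0.50 (log2) in sh_SRSF3 (SE 0.12, edgeR adjusted p = 0.00212), and this change was 0.30 (adjusted p = 0.0194) without control replicate 2 and 0.73 without control replicate 1. Its log2 difference in sh_TDP43 was -0.14 (SE 0.12, adjusted p = 0.348), which became -0.35 (adjusted p = 0.0127) without control replicate 2 and 0.08 without control replicate 1.

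HNRNPR (GRCh37 chromosome 1, 23630264 to 23670829) was at 232 and 209.9 CPM in sh_TDP43 and 304.1 and 326.2 CPM in sh_SRSF3, against 294.2 and 255.8 CPM in sh_control. The sh_TDP43 libraries lay below the controls and the sh_SRSF3 libraries just above them. It fell by 0.32 (log2) in sh_TDP43 (SE 0.10, edgeR adjusted p = 0.0198), and its log2 difference in sh_SRSF3 was 0.20 (SE 0.10, adjusted p = 0.096). The fall in sh_TDP43 was not called with upper-quartile scaling (adjusted p = 0.0781), without sh_TDP43 replicate 2 (adjusted p = 0.185) or without control replicate 1 (adjusted p = 0.124), and without control replicate 1 the sh_SRSF3 difference was called at 0.30 (adjusted p = 0.025).

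HNRNPU (GRCh37 chromosome 1, 245003940 to 245027844) was at 686.5 and 619.5 CPM in sh_TDP43 and 920.2 and 837.7 CPM in sh_SRSF3, against 924.9 and 777.5 CPM in sh_control. Its sh_TDP43 libraries lay below all others, and its sh_SRSF3 libraries lay within the control range. It fell by 0.38 (log2) in sh_TDP43 (SE 0.11, edgeR adjusted p = 0.00997), and its log2 difference in sh_SRSF3 was 0.05 (SE 0.11, adjusted p = 0.718). The call in sh_TDP43 ended without sh_TDP43 replicate 2 (adjusted p = 0.108) or without control replicate 1 (adjusted p = 0.073). COX20, on the other strand, shares 3502 of its exonic bases and had 27 to 55 counted reads per library. Reads on the shared bases may go uncounted for both genes, and the effect on the HNRNPU level was not measured.

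Set directly against each other, the knockdowns differed for 7 of the 10 genes, against 65.5% of all genes (33.5% higher and 32% lower in sh_TDP43). HNRNPLL (log2 difference 0.98, SE 0.11, edgeR adjusted p = 3.61e-06), HNRNPF (0.53, SE 0.09, adjusted p = 0.000194) and HNRNPK (0.48, SE 0.09, adjusted p = 0.000471) were higher in sh_TDP43 than in sh_SRSF3. HNRNPM (-0.65, SE 0.12, adjusted p = 0.000308), HNRNPR (-0.51, SE 0.10, adjusted p = 0.000455), HNRNPH3 (-0.45, SE 0.10, adjusted p = 0.00141) and HNRNPU (-0.43, SE 0.11, adjusted p = 0.00291) were lower in sh_TDP43. HNRNPH1 (-0.25, SE 0.11, adjusted p = 0.0526), HNRNPH2 (0.20, SE 0.09, adjusted p = 0.0604) and HNRNPL (0.02, SE 0.11, adjusted p = 0.896) were not called. The CPM of the knockdowns did not overlap for 9 of the 10 genes, all but HNRNPL, against 83.8% of all genes. The HNRNPH1 difference depended on the fit: it was -0.25 with DESeq2 (adjusted p = 0.032), -0.001 with upper-quartile scaling (adjusted p = 0.993), and -0.14 without sh_TDP43 replicate 2 (adjusted p = 0.376).

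Scaling bears on this comparison. Upper-quartile scaling moved the median log2 difference of all genes to 0.28, against 0.04 with TMM, and gave 6451 genes higher and 3378 lower in sh_TDP43, against 5041 and 4801. Of the 10 genes it called 5 higher and 2 lower: HNRNPH2 and HNRNPL joined the higher ones, and HNRNPH3 (adjusted p = 0.0915) and HNRNPU (adjusted p = 0.145) were no longer called. It also moved HNRNPK to 0.73, HNRNPM to -0.40 and HNRNPR to -0.26, each still called. Against sh_control it called 3956 genes higher and 2978 lower in sh_TDP43, against 3105 and 3623 with TMM, and 3959 higher and 6020 lower in sh_SRSF3, against 4881 and 5164, with all-gene medians of 0.09 and -0.19. Directions of called members were the same under both scalings.

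Genes of related function were counted beside these, in 3 lists and with TMM scaling. Over all genes tested, 20.7% rose and 24.1% fell in sh_TDP43, and 32.5% rose and 34.4% fell in sh_SRSF3. Of 18 other hnRNP genes, 0 rose and 13 fell in sh_TDP43, with a median log2 change of -0.36. PTBP1, a polypyrimidine tract binding repressor (-1.29), HNRNPDL (-0.98) and RBMX (-0.72) fell most there. In sh_SRSF3, 5 of them rose and 10 fell, with a median of -0.40. PTBP1 (-2.22) and SYNCRIP, the paralog of HNRNPR (-0.89), were among those that fell, and HNRNPUL1, a relative of HNRNPU (0.59), PCBP2, a relative of HNRNPK (0.55), and HNRNPA0 (0.47) rose most.

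Of 24 other splicing regulator genes, 22 were tested. U2AF1 had no counted reads, which need not mean that its RNA was absent. MATR3, listed under more than 1 gene identifier, was left out. In sh_TDP43, 3 rose and 5 fell, with a median log2 change of 0.08. MBNL1 (-0.90), MBNL3 (-0.87) and QKI (-0.76) fell most, and MBNL2 (0.57), KHSRP (0.25) and RBM39 (0.23) rose. In sh_SRSF3, 16 rose and 2 fell, with a median of 0.63. ESRP1, an epithelial splicing regulator at a low level in these cells (1.75), MBNL2 (1.60) and RBM25 (1.18) rose most, and MBNL3 (-1.04) and PUF60 (-0.53) fell.

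Of 10 nonsense-mediated decay genes, UPF2 (0.59), SMG8 (0.34) and SMG1 (0.33) rose and SMG5 (-0.36) fell in sh_TDP43, with a median log2 change of 0.13. In sh_SRSF3, 7 rose, led by UPF3B (1.44), SMG1 (1.22) and SMG8 (0.63), and 1 fell, with a median of 0.48.

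**Figure D3:**
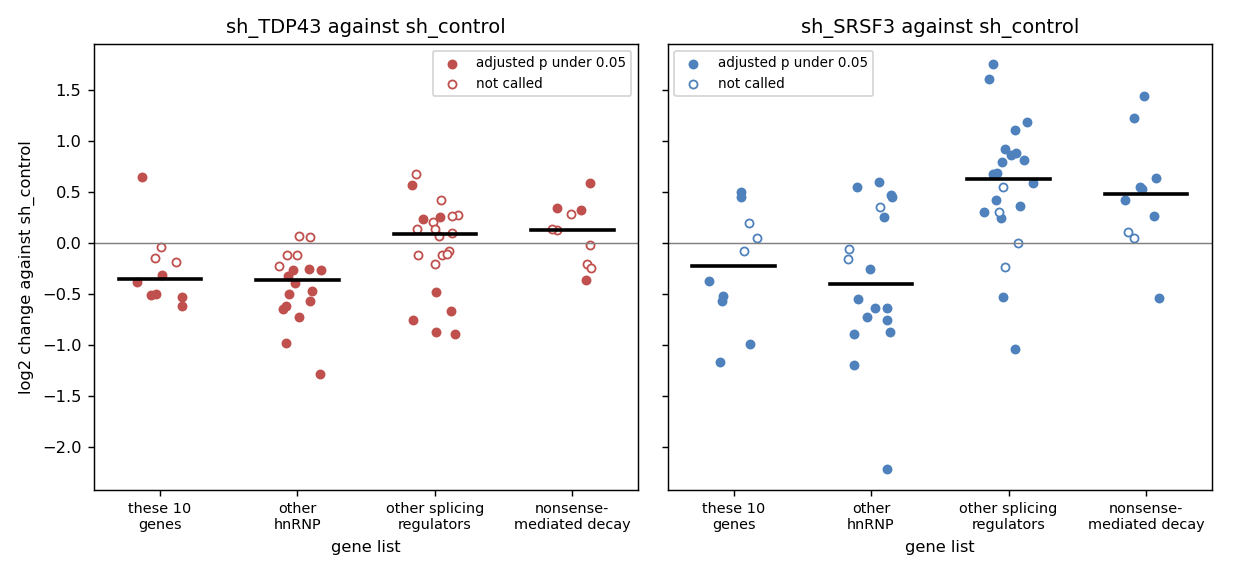
Log2 change against sh_control (vertical axis) of the 10 genes and of other hnRNP, other splicing regulator and nonsense-mediated decay genes, in sh_TDP43 (left) and sh_SRSF3 (right). Each point is a gene, filled where the adjusted p was under 0.05, and black lines are list medians. In sh_SRSF3 the medians were -0.22, -0.40, 0.63 and 0.48.

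The genes whose log2 CPM followed the members most closely over the 6 libraries were found among 9463 genes with a mean of at least 10 CPM, as a description of libraries shared by all of them. For HNRNPH2 they were CSF2RA (Pearson r = 0.998) and TTC9 (r = 0.997), and 7 genes had r above 0.99. For HNRNPH1 they were WDR5 and EXOSC3 (r = 0.998 each), with 15 genes above 0.99. For HNRNPM they were NDUFA6 (r = 0.998) and HTATSF1 (r = 0.997), with 15 genes above 0.99. For HNRNPLL, 48 genes were above 0.99, QPCTL (r = 0.9994) among them.

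In the RIPs, HNRNPM RNA was recovered most with Flag-TDP43. Each ratio below rests on 1 RIP and 1 input library, so there is no replicate check and no test, and no control RIP was used. Levels are fragments per kilobase and 1e6 reads (FPKM), ratios are of FPKM + 1, and a gene counted as past 2-fold only if it had at least 1 FPKM in either library. HNRNPM was at 58.34 FPKM in the TDP43 RIP, against 13.77 FPKM in its input, a 4.02-fold ratio (log2 2.01) that placed it 393rd from the top of 10647 genes. With Flag-SRSF3 it was at 9.202 FPKM in the RIP, against 13.14 FPKM in the input, a log2 ratio of -0.47. The inputs were alike for this gene, and the difference between the ratios, TDP43 minus SRSF3, was 2.48 on the log2 scale.

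HNRNPM was the single gene of the 10 past 2-fold with Flag-TDP43, where 28.9% of all genes were (15.9% higher and 13.1% lower in the RIP). With Flag-SRSF3, 0 of 9 genes were past 2-fold, against 21.5% of all genes (14.7% higher and 6.82% lower). HNRNPH3 was under 1 FPKM in both SRSF3 libraries and was not counted. The median log2 ratio of the genes counted was 0.27 with Flag-TDP43 and -0.14 with Flag-SRSF3, against 0.03 and 0.18 over all genes.

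HNRNPH1 had a higher ratio with Flag-TDP43 than with Flag-SRSF3. HNRNPH1 was at 12.06 FPKM in the TDP43 RIP, against 6.209 FPKM in its input, a log2 ratio of 0.86. With SRSF3 it was at 2.958 FPKM in the RIP, against 6.342 FPKM in the input, a log2 ratio of -0.89, so the ratios lay on either side of 0. HNRNPH3 was at 3.444 FPKM in the TDP43 RIP, against 1.584 FPKM in its input, a log2 ratio of 0.78. In SRSF3 libraries it was at 0.3267 FPKM in the RIP, against 0.2562 FPKM in the input. Computed from FPKM, exon length and an estimated depth, these would be about 49 and 39 reads. That estimate and the counting intervals below rest on FPKM values that were low for HNRNPH3, as described further on. Its input levels differed by 1.04 in log2 of FPKM + 1 (TDP43 minus SRSF3), where the added 1 narrows the gap between 1.584 and 0.2562 FPKM. In the second deposited table, described below, these inputs were at 15.53 and 12.91. Approximate counting intervals of its FPKM ratios were 1.87 to 2.53 with TDP43 and 0.836 to 1.94 with SRSF3. Their overlap does not show that the ratios were alike. No order is drawn for HNRNPH3, because its FPKM was under 1 in both SRSF3 libraries and its input FPKM differed between the cells. HNRNPH2 had log2 ratios of 0.15 with TDP43 and 0.01 with SRSF3, and HNRNPF had -0.68 and -0.18.

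HNRNPL showed the opposite order. It was at 11.97 FPKM in the TDP43 RIP, against 22.43 FPKM in its input, a log2 ratio of -0.85, the lowest of the 10 genes. With SRSF3 it was at 40.16 FPKM in the RIP, against 27.58 FPKM in the input, a log2 ratio of 0.53, the highest of the 10 genes. Of all genes, 67.4% lay below HNRNPL there. Its paralog HNRNPLL had log2 ratios of 0.21 with TDP43 and 0.23 with SRSF3. HNRNPK had 0.34 and -0.14, HNRNPU had 0.36 and -0.12, and HNRNPR had -0.32 and -0.28.

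A second deposited table, with no stated unit, gave the same libraries on another scale. In it HNRNPM was at 153.3 in the TDP43 RIP, against 24.9 in the input (log2 ratio 2.57), with 99.2% of genes below it. HNRNPH3 was past 2-fold with TDP43 there, at 45.05 in the RIP, against 15.53 in the input (log2 ratio 1.48), and HNRNPH1 was past 2-fold lower with SRSF3, at 33.94 in the RIP, against 79.97 in the input (log2 ratio -1.21). Past 2-fold there were 25% of all genes with TDP43 (11.4% higher and 13.5% lower in the RIP) and 15.8% with SRSF3 (8.59% higher and 7.24% lower). HNRNPH2 had log2 ratios of -0.42 with TDP43 and -0.79 with SRSF3 there, both below its FPKM values. HNRNPH3 changed its sign with SRSF3, to -0.63, and HNRNPR with TDP43, to 0.01. HNRNPL kept its order, with -0.89 for TDP43 and 0.17 for SRSF3.

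The FPKM of some members were low relative to the other tables. HNRNPH1 input FPKM averaged 0.079 of its RPKM in sh_control and HNRNPH3 input FPKM 0.0258, against a median of 0.46 over 7071 genes, and the same genes were low against the second table, at 0.0742 and 0.0647 of it where the median was 0.386. HNRNPM input FPKM was 0.166 of its RPKM in sh_control. The part of this in the RIP ratios was not tested. The authors' deposited table marks genes as bound in a column for each RIP, without a stated criterion, and all 10 genes carry both marks, as do 67.7% of the 10305 genes with an input FPKM of at least 1.

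**Figure D4:**
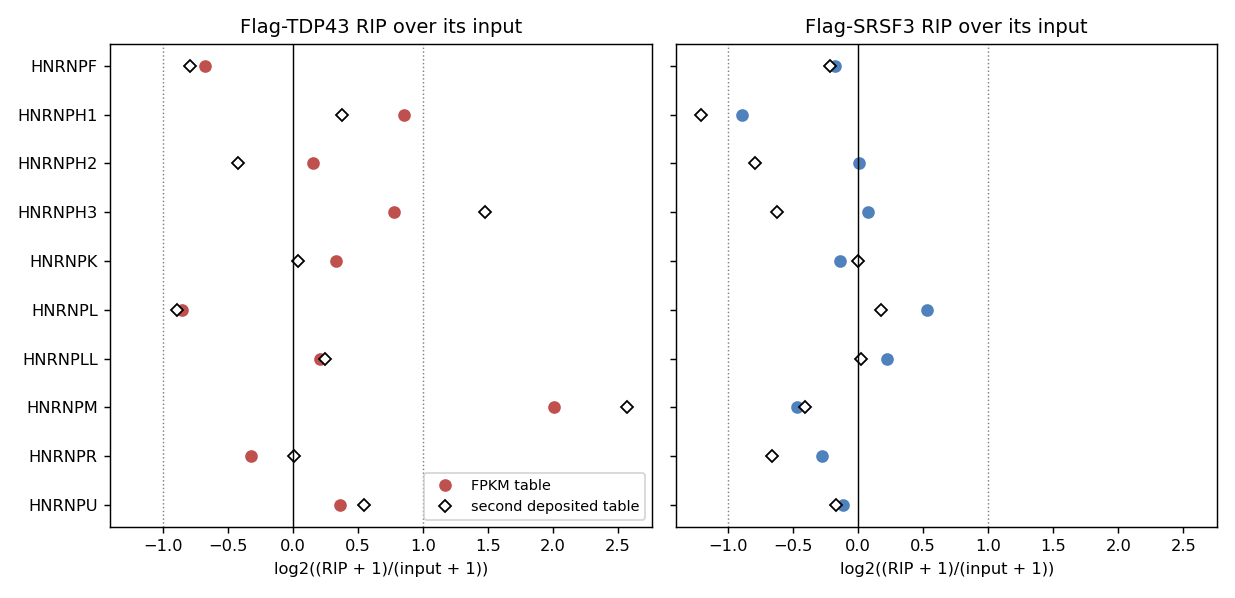
Log2 ratio of RIP + 1 over input + 1 (horizontal axes) for each gene, with Flag-TDP43 (left) and Flag-SRSF3 (right). Filled points are the FPKM table, open diamonds are the second deposited table, each from 1 RIP and 1 input library, and dotted lines mark 2-fold. HNRNPM stands apart with Flag-TDP43, at 2.01 and 2.57.

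Both assays can be set side by side for the genes at either end. HNRNPM, with the highest TDP43 RIP ratio of the 10, had a log2 difference of -0.14 in sh_TDP43 that was not called. HNRNPL, whose SRSF3 ratio was the highest of the 10 but had only 67.4% of all genes below it, fell by 0.52 in sh_SRSF3. In sh_TDP43 the log2 change of HNRNPL was -0.50, and its TDP43 ratio was the lowest of the 10 (log2 -0.854). HNRNPLL and HNRNPK fell more in sh_SRSF3 (-1.17 and -0.99), with SRSF3 log2 ratios of 0.225 and -0.141. A link between RIP ratio and knockdown change was not tested. HNRNPH2, which rose in both knockdowns, had RIP ratios near 0 in the FPKM table.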

How the data were processed

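Groups and replicate numbers came from the sample titles. The 10 genes, the lists and the alternatives were chosen with earlier results of these data known. Per the file headers, knockdown reads were counted with featureCounts v1.4.6-p5 on GRCh37 and deposited as unnormalised counts, without a strand or read-pair option, so reads of antisense genes cannot be told apart. STAR 2.5.2a, HISAT2 2.0.5, StringTie 1.3.0 and Cufflinks are named in the submitters' processing notes, with no role. The authors deposited RIP values as FPKM, and a second table of normalised signal with no stated unit. RIP depth, estimated from FPKM steps, was 27.665 to 28.437 in units of 1e6 reads. The deposited tables' log2 ratios were not used in the comparisons.

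For the counts, edgeR 4.0.16 (R 4.3.3) was used with TMM, filterByExpr, two-sided quasi-likelihood test, 6 libraries in 1 fit with 3 residual degrees of freedom, and Benjamini-Hochberg adjustment over 15026 genes. The script was tested on simulated data. RIP ratios are log2((RIP + 1)/(input + 1)). The alternatives were upper-quartile scaling, DESeq2 1.42.0, no filter, fewer libraries, a replicate block, a pseudocount of 0.1 and median centring. All 10 genes, the targets and, per list and direction, up to 3 called genes of largest change are named. Some genes that this rule names are not reported here. No label matches 2 per-sample count columns, which stayed unused. The combined knockdown was therefore not analysed here.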

Additional observations from a re-analysis of the deposited data

How the results depend on the processing

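Total counts of called genes, both directions together, stayed within 1.5 times under each hairpin alternative run. By direction they did not: between the knockdowns, upper-quartile scaling called 5 of the 10 genes higher and 2 lower, against 3 and 4, and without sh_TDP43 replicate 2 the genes higher in sh_TDP43 than in sh_control numbered 1962, against 3105. Leaving out 1 library at a time leaves a group with 1 library, and it moved both the number of the 10 genes called and that of all genes. In the hairpin comparisons, changes of sign were limited to differences that were not called: HNRNPF in sh_TDP43 was at 0.056 with upper-quartile scaling and from -0.123 to 0.038 with a library left out, HNRNPU in sh_SRSF3 was at -0.107 with that scaling and from -0.076 to 0.176 with a library left out, and leaving out a library gave -0.348 to 0.075 for HNRNPM in sh_TDP43, -0.17 to 0.021 for HNRNPH3 in sh_SRSF3 and -0.023 to 0.064 for HNRNPL between the knockdowns. The cause was not tested.

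With Flag-TDP43, 2 of the 10 genes were past 2-fold with a pseudocount of 0.1 or in the second table, which was chosen after seeing the data. With Flag-SRSF3, 1 gene, HNRNPH1, was past 2-fold lower with a pseudocount of 0.1, with ratios centred on the median of all genes, or in the second table. The pseudocount acts most on low FPKM by its construction.

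Replicate numbers are shared between groups, but the labels do not say what they mark, and only 2 numbers exist. Deviations of same-numbered libraries correlated at 0.132 to 0.236 over 12598 genes. With a replicate block, 7 genes were called in sh_TDP43, 8 in sh_SRSF3 and 9 between the knockdowns, against 7 in each without it. The calls gained were HNRNPR in sh_SRSF3 (0.201, edgeR adjusted p = 0.035) and, between the knockdowns, HNRNPH1 (-0.25, adjusted p = 0.00361) and HNRNPH2 (0.204, adjusted p = 0.033). Of all genes, 7672, 10565 and 10413 were called, against 6728, 10045 and 9842.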
